A study of Mus musculus with 42 samples.

Results

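The genes described here build and run the machinery of cell division. They are 45 genes for proteins of the kinetochore, the mitotic spindle, the mitotic kinases and the cut between daughter cells, picked by name from a table of RNA-seq counts in mouse carotid intima, and all 45 were among its 21674 genes. By role, 10 belong to the centromere and kinetochore (Cenpa, Cenph, Cenpk, Cenpn, Ndc80, Nuf2, Spc24, Spc25, Cenpe and Cenpf) and 4 to the spindle checkpoint (Bub1, Bub1b, Mad2l1 and Ttk). The chromosomal passenger complex gives 4 (Aurkb, Birc5, Incenp and Cdca8) and the mitotic kinases and cyclins 6 (Cdk1, Ccnb1, Ccnb2, Ccna2, Plk1 and Aurka). Anaphase and sister chromatids give 5 (Cdc20, Pttg1, Espl1, Esco2 and Top2a), the kinesins 6 (Kif11, Kif15, Kif18b, Kif2c, Kif22 and Kif4), spindle assembly 5 (Tpx2, Nusap1, Dlgap5, Hmmr and Fam83d), and the central spindle and cytokinesis 5 (Prc1, Kif23, Kif20a, Ect2 and Anln).

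When a cell enters mitosis, cyclin A and cyclin B bind the kinase Cdk1, chromosomes condense, and kinetochores assemble on centromeres to catch spindle microtubules. The spindle checkpoint holds the cell until every kinetochore is attached; Cdc20 then turns on the anaphase-promoting complex, which destroys securin (Pttg1) and cyclin B and so frees separase (Espl1) to split the sister chromatids, after which the central spindle directs the cleavage of the cell. Most of these transcripts are made only late in the cell cycle, through promoters that carry a CCAAT box bound by NF-Y and a cell cycle homology region bound by the DREAM and MuvB complexes, so in a tissue their level usually rises with the number of dividing cells. Endothelium of a healthy adult artery is mostly quiescent.

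RNA was flushed from the intima of carotid arteries after partial ligation, which lowers flow in the ligated (low-flow) carotid and leaves the contralateral carotid at high flow. Each artery library was a pool of 3 to 5 arterial flushes. Untreated young male C57BL/6J mice gave 3 low-flow, 3 high-flow and 3 sham-operated pools at 48 hr. Further young male C57BL/6J mice were ligated and treated with IgG, anti-GPIba (which depletes platelets), anti-Gr1 (granulocytes), PBS liposomes or clodronate liposomes (macrophages), 2 low-flow pools for each at 48 hr, with 2 high-flow pools each for IgG and PBS liposomes, plus a single earlier low-flow pool each for PBS and clodronate liposomes read at 100 bp. At 7 d, adult mice of both sexes on a C57 background gave 3 low-flow and 2 high-flow pools of each genotype. All carried the floxed Rbfox2 lox/lox alleles and the Rosa26-mTmG reporter, and the Rbfox2 EC-KO mice also had Cdh5(PAC)-CreERT2, which their control littermates lacked; that Cre is driven by an endothelial promoter, so other cells in a flush keep the gene. Cultured aortic endothelium gave 7 libraries, with no replicates: 4 of a line that is TetOn-SV40 immortalized (the SV40 turned off), 1 of eGFP-sorted primary cells at 5 d and 1 each of Cd31+, Icam2+ sorted control and Rbfox2 EC-KO cells at 7 d. High-flow pools came from the contralateral carotids of ligated mice, so low-flow and high-flow pools may share mice. No label matched one pool to another, so the p-values treat pools as separate and measure the spread between pools only.

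Total counts ran from 4064477 to 19035957 over the 42 libraries. Rbfox2 was 0.169 to 1.09 FPKM (counts scaled by transcript length and library total) in the 7 d EC-KO pools and 2.74 to 5.73 in their controls. All 11 endothelial markers were detected in every library, though in the 4 libraries of the line they summed to only 292.4 to 370.1 CPM (counts scaled to a common library total), against 4659 and 5145 in the Cd31+, Icam2+ sorted primary cells. The read file names in the table's header place the treated low-flow pools of 48 hr in another sequencing run than the treated high-flow pools, so run and flow cannot be told apart in treated mice. They also place the 7 d low-flow pools numbered 1 in another run than those numbered 4 and 5, of which EC-KO pool 4 and control pool 5 were again in a run apart from the high-flow pools.

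Promoters of 6 members are shown to set the letters beside the levels that follow: Plk1, Kif2c and Bub1, which rose most at low flow, Ccnb2 and Cdc20, an abundant cyclin and the anaphase activator, and Pttg1, which moved against the others. Each is 250 bases before and 50 after the RefSeq start in GRCm38.p6, written 5′ to 3′ on the gene's strand, at chr7:122159185-122159484 (plus strand), chr4:117178723-117179022 (minus), chr2:127831810-127832109 (minus), chr9:70421505-70421804 (minus), chr4:118437294-118437593 (minus) and chr11:43425932-43426231 (minus). Capitals mark TTTGAA or TTCGAA, which resemble the cell cycle homology region, and CCAAT, each on either strand.
Plk1: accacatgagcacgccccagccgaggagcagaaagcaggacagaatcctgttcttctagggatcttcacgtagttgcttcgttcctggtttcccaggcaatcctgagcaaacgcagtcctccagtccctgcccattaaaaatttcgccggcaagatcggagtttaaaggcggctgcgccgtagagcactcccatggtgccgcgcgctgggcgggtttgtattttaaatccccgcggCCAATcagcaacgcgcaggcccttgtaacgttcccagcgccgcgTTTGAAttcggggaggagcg
Kif2c: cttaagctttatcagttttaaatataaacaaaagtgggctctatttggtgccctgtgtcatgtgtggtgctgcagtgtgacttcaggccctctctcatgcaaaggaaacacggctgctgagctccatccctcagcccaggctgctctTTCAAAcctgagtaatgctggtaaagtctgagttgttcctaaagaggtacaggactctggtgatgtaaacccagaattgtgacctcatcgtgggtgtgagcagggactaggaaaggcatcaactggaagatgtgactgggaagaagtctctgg
Bub1: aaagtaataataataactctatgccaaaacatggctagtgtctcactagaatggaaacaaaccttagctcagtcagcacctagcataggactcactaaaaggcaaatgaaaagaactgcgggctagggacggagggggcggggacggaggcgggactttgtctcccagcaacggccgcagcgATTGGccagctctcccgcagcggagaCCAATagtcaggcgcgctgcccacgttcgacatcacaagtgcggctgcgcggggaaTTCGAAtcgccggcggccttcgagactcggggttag
Ccnb2: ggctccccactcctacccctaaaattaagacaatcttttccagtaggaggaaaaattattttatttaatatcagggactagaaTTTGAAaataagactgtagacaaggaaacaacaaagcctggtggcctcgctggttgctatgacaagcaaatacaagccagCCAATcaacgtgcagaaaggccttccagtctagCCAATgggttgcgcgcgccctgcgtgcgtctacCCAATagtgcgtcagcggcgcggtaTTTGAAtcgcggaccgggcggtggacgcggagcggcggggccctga
Cdc20: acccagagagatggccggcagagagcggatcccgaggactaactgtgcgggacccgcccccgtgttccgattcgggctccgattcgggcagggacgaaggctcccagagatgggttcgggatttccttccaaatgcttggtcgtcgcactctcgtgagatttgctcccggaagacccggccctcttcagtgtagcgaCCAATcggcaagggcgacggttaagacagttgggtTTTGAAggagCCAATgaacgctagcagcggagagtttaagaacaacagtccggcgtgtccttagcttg
Pttg1: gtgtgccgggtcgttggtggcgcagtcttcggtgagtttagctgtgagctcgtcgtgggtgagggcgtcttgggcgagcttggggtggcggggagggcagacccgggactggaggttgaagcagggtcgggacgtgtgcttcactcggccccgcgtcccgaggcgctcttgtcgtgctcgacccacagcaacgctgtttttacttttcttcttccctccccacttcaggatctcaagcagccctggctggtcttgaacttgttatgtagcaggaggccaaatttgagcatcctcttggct

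Such a window was on hand for 37 of the 45 members; Spc24, Aurkb, Incenp, Ccna2, Esco2, Tpx2, Dlgap5 and Kif20a had none. TTTGAA or TTCGAA on either strand (TTCGAA reads the same on both) stood in 28 of the 37 (75.7%), against 21.7% of 27025 genes, and CCAAT likewise in 28 (75.7%), against 41.1%. Both motifs stood together in 24 members (64.9%) and in 9.65% of all genes. In Plk1, CCAAT lay 14 bases before the start and TTTGAA 31 bases after it, and Ccnb2 held CCAAT 87, 54 and 21 bases before the start. Nuf2, Mad2l1, Birc5, Pttg1 and Nusap1 held neither in this window (5 of 37, 13.5%, against 46.9% of all genes); 4 of these 5 rose at low flow with the rest. The motifs can share a letter, as in Cdca8, and a match says only that the letters are there.

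**Figure D1:**
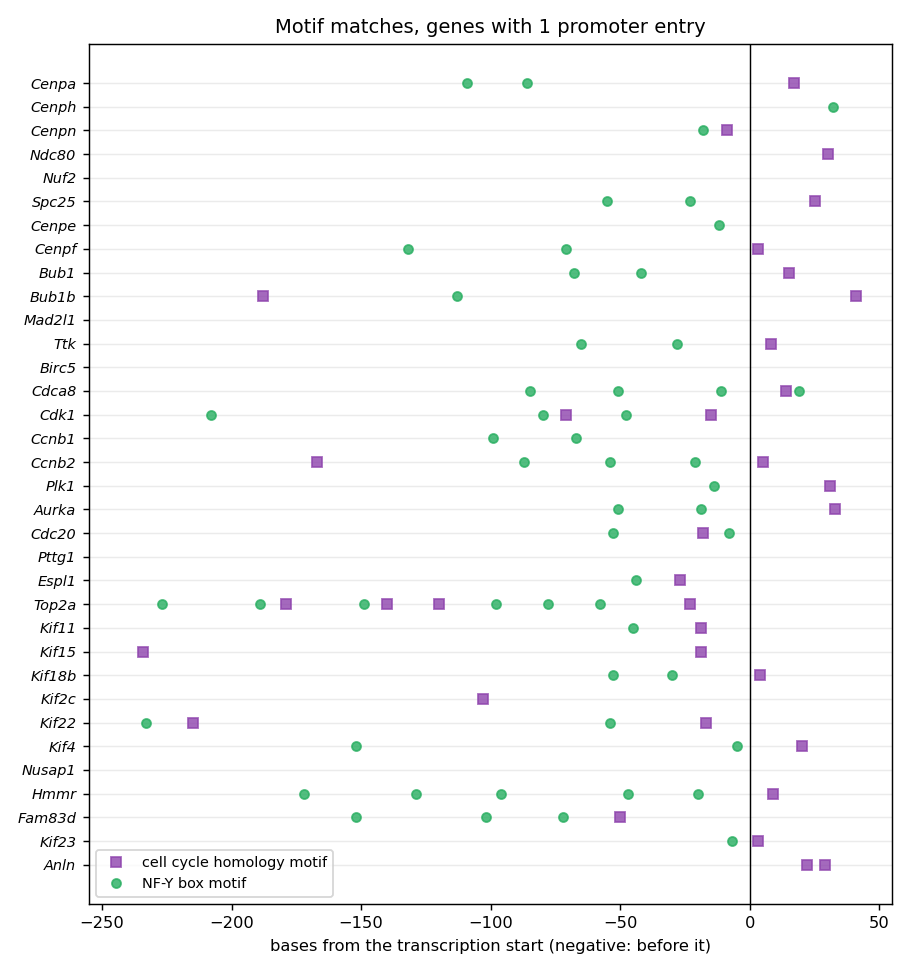
Position of each motif match in the 34 members with a single promoter entry, in bases from the transcription start (0, vertical line). Squares are the cell cycle homology motif and circles the NF-Y box motif, and rows with no mark (Nuf2, Mad2l1, Birc5, Pttg1 and Nusap1) held neither. Many genes carry circles within 100 bases before the start and a square close to it.

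In untreated mice, nearly the whole mitotic set was higher at low flow. Summed over the 45 genes, the low-flow pools held 2431, 1321 and 3080 CPM, the high-flow pools 250.9, 316.7 and 254.5, and the sham pools 686.1, 293.1 and 1739. The low-flow and high-flow pools did not overlap and the mean was 8.31-fold higher at low flow, while the highest sham pool lay above the lowest low-flow pool. Pttg1 alone made up 35.0 to 56.1% of the sum in the high-flow pools and at most 1.76% at low flow; without it the low-flow mean was 2242 CPM, the high-flow mean 152.8 and the sham mean 809.3. In a bulk flush, fewer dividing cells and less of these RNAs per cell cannot be told apart.

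**Figure D2:**
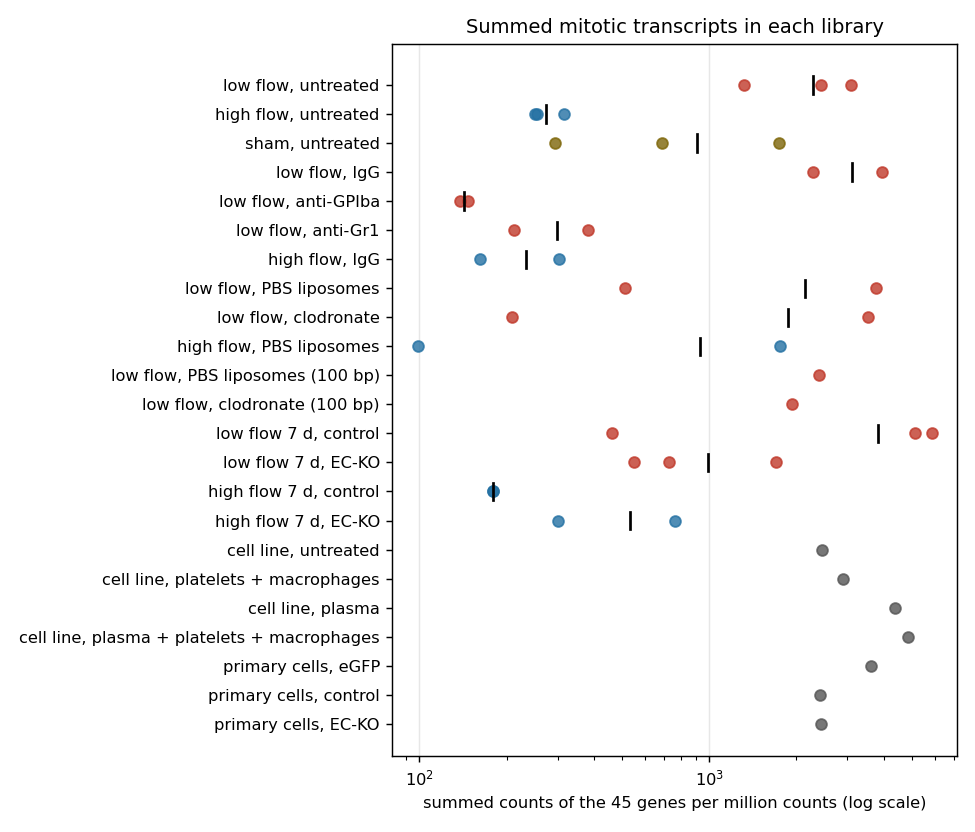
Counts of the 45 genes summed in each library, in CPM, on a log scale. Each point is a library (red low flow, blue high flow, olive sham, grey cultured cells) and vertical bars are group means. The untreated low-flow pools lie from 1321 to 3080 and the high-flow pools from 250.9 to 316.7, while the anti-GPIba pools at low flow lie at 138.2 and 146.9.

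Against high flow, 44 members could be tested and all 44 passed an adjusted p of 0.05 in edgeR's quasi-likelihood test, 43 higher and 1 lower (Pttg1), where 46.2% of all 11236 genes tested passed, 23.6% higher and 22.6% lower; at an unadjusted p under 0.05 the share was 53.7%. The median log2 fold change of the members was 4.43, against -0.07 for all genes tested. Kif18b, a kinesin of microtubule plus ends, did not pass the filter on low counts and was not tested. Its 3 high-flow pools held 0 counts, and its low-flow pools stood at 1.199, 0.564 and 1.10 FPKM, at least 4.92-fold higher by a floor of 3 counts per library. For 43 of the 44 the low-flow pools all lay above the high-flow pools (27.7% of all genes did so).

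Plk1, the polo-like kinase that drives mitotic entry and spindle assembly (chromosome 7 from 129302951 to 129313389 in mm9), had the largest change among those tested. It measured 17.4, 23.9 and 35.9 FPKM at low flow, 0.570, 0.797 and 0.535 at high flow and 2.76, 0.968 and 10.2 in sham pools. The low-flow pools overlapped neither the high-flow nor the sham pools, and Plk1 rose by 5.94 ± 0.27 on the log2 scale over high flow (SE, n = 3 and 3 pools, edgeR adjusted p = 1.198e-06). Kif2c, a kinesin that removes tubulin from misattached microtubules, rose by 5.83 ± 0.44 on the log2 scale, from 0.184 to 0.577 FPKM at high flow to 6.07 to 21.9 at low flow. Bub1, a checkpoint kinase at the kinetochore, rose by 5.64 ± 0.36, from 0.0526 to 0.196 FPKM to 3.71 to 5.94.

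By role, all 10 kinetochore genes rose. Cenpa, the histone that marks the centromere and the most abundant of them per length, went from 3.58 to 4.43 FPKM at high flow to 28.9, 9.06 and 39.9 at low flow (log2 3.36 ± 0.38), and Cenpe, the motor that brings chromosomes to the spindle equator, rose most (5.52 ± 0.42). The 4 subunits of the Ndc80 complex, which grips the microtubule end, all rose: Ndc80 by 4.42, Nuf2 by 4.44, Spc24 by 3.79 and Spc25 by 4.66. All 4 checkpoint genes rose, with Mad2l1, the inhibitor of Cdc20, at 43.2, 31.7 and 52.8 FPKM against 5.79, 6.23 and 6.13 (3.52 ± 0.22). All 4 passenger complex genes rose too, from Incenp, the scaffold (3.91), to Aurkb, the kinase (5.20), and survivin (Birc5) reached 148, 74.8 and 133 FPKM against 5.80, 8.11 and 3.78.

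The 6 kinases and cyclins also rose together. Ccnb2, a B-type cyclin, measured 76.7, 27.9 and 88.6 FPKM at low flow and 2.86, 2.82 and 3.00 at high flow (log2 5.14 ± 0.37), while its kinase Cdk1 rose by 5.41 ± 0.39 and Ccna2, the cyclin of S phase and mitotic entry, by 2.97 ± 0.22, the smallest change of the 6. Among the 5 kinesins tested, Kif22, which pushes chromosome arms from the poles, rose from 1.22 to 3.08 FPKM to 43.2, 26.1 and 56.2 (5.03 ± 0.33). All 5 spindle assembly genes rose, among them Nusap1, a microtubule bundler (4.35 ± 0.35), and so did all 5 genes of the central spindle and cytokinesis, among them Prc1, which crosslinks the midzone microtubules (64.6, 27.9 and 78.2 FPKM against 1.15, 4.41 and 2.23, log2 5.09 ± 0.45). A pseudogene copy of Ccnb2, of Kif22 and of Kif4 is annotated, so their counts are uncertain where reads could be split, and Kif18b, Incenp, Ccna2, Cdca8 and Birc5 stood at other levels relative to the rest of the members in 100 bp than in 150 bp libraries.

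The partners at anaphase went apart. Pttg1, securin, the inhibitor of separase (chromosome 11 from 43233752 to 43239753 in mm9), measured 41.9, 34.4 and 81.8 FPKM at low flow, 213, 168 and 169 at high flow and 179, 124 and 135 in sham pools. Every low-flow pool lay below every other untreated pool, as for 30.1% of all genes against high flow and 29.8% against sham. The log2 change was -1.19 ± 0.19 from high flow (edgeR adjusted p = 0.000547) and -0.82 ± 0.19 from sham (adjusted p = 0.0117, or 0.0552 without the sham pool that had the middle summed level). Espl1, the separase that securin holds, rose by only 1.18 ± 0.27 against high flow, the smallest rise of the 43 (0.908, 0.903 and 1.51 FPKM against 0.832, 0.709 and 0.781). FPKM are scaled by the library total and the log2 changes by edgeR's own scaling factors. For Plk1, Pttg1 and Espl1 against high flow, the log2 changes lie higher than the FPKM alone give. The other 3 genes of this role, Cdc20 (4.05 ± 0.28), the cohesin acetylase Esco2 (4.13 ± 0.38) and topoisomerase Top2a (4.95 ± 0.40), rose like the rest.

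**Figure D3:**
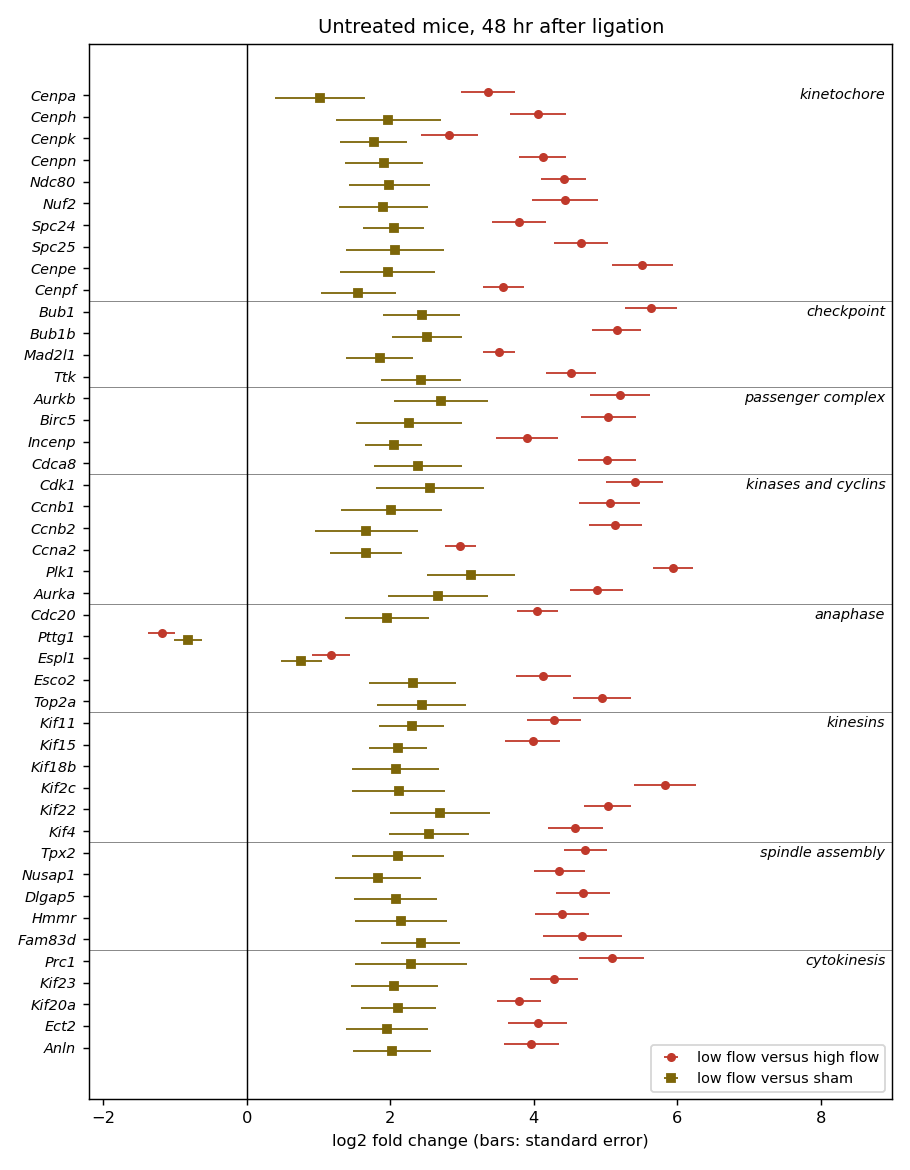
Log2 fold change of each member in untreated mice at 48 hr, low flow against high flow (red circles) and against sham (olive squares), with standard errors, grouped by role. Pttg1 lies left of 0 in both (-1.19 and -0.82) and Espl1 is the lowest of the others against high flow (1.18), while Plk1 lies farthest right in both; Kif18b has no red circle because it was not tested there.

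Against sham, 40 of 45 members were higher at low flow and 1 lower (Pttg1), where 40.3% of 11164 genes passed, 20.6% higher and 19.7% lower. Unadjusted, 44 members and 50.9% of all genes had a p under 0.05. For 40 members the low-flow pools all lay above the sham pools (26.6% of all genes). The median log2 fold change was 2.07 (all genes tested, -0.04). Plk1 again changed most (3.12 ± 0.62, edgeR adjusted p = 0.00635), followed by Aurkb (2.70 ± 0.66) and Kif22 (2.70 ± 0.70). The 4 that missed the threshold were Cenpa (1.02, adjusted p = 0.217), Cenph (1.97, 0.0587), Ccnb2 (1.66, 0.0923) and Espl1 (0.76, 0.0595); the 3 sham pools of Ccnb2 spread from 5.81 to 68.8 FPKM. The count rested on single pools: 45 passed without the sham pool of the highest sum, 10 without the sham pool of the middle sum, and 12 and 22 without the low-flow pools of the middle and the lowest sum.

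High flow did not pass against sham for any member. Of the 35 members with enough counts to test, 0 passed in edgeR's quasi-likelihood test (0% of 11030 genes did), 32 had an unadjusted p under 0.05 (7.87% of all genes) and 11 passed in DESeq2, all lower at high flow. The median log2 fold change was -2.33 (all genes, 0.01), with Pttg1 the only positive value (0.38). For 13 members the high-flow pools all lay below the sham pools (5.68% of all genes), and without the sham pool of the lowest sum 25 passed. Low flow against high flow and high flow against sham share the high-flow pools, and both sham comparisons share the sham pools.

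In mice given IgG, low-flow intima held high levels of these transcripts, and in mice given either of 2 antibodies that remove blood cells it held lower ones in the means. Fitted with all treated groups, 13 members passed the adjusted test for anti-GPIba, the platelet-depleting antibody, and 0 for anti-Gr1; fitted with IgG alone, 44 and 42 did. The summed level was 2287 and 3934 CPM under IgG, 146.9 and 138.2 under anti-GPIba, and 382.8 and 212.2 under anti-Gr1, at low flow in each case; IgG-treated high-flow pools held 303.9 and 161.5. Both antibody groups lay wholly below IgG at low flow, by 21.8-fold for anti-GPIba and 10.5-fold for anti-Gr1 in the means (without Pttg1, which made up 29.8 to 44.6% of the anti-GPIba sums, the means were 3078, 89.9 and 261.9 CPM under IgG, anti-GPIba and anti-Gr1), and the anti-GPIba pools lay below the high-flow IgG pools as well.

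In edgeR's quasi-likelihood test of anti-GPIba against IgG, 13 of 45 members were lower and 0 higher, against 10.5% of 13401 genes lower (16.5% in both directions). They were Spc24, Spc25, Bub1, Aurkb, Incenp, Cdca8, Ccna2, Espl1, Esco2, Kif11, Kif22, Hmmr and Fam83d. The median log2 fold change was -5.37 (all genes, -0.04), 44 members were negative with an unadjusted p under 0.05 (36.7% of all genes), and for the same number both anti-GPIba pools lay below both IgG pools (37.4% of all genes); Pttg1 alone lay wholly above (36.9%). DESeq2 called 43 and a fit of these 4 pools alone 44, while leaving out any of the 4 pools left 0.

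Esco2 and Fam83d, the latter a spindle protein that guides chromosome alignment, had 0 counts in both anti-GPIba pools. Esco2 was 8.61 and 16.4 FPKM under IgG, at least 205-fold higher by a floor of 3 counts per library, and Fam83d was 9.38 and 18.2 FPKM, at least 174-fold higher. Bub1 measured 7.98 and 16.3 FPKM under IgG and 0.0810 and 0 under anti-GPIba (log2 -8.21 ± 2.43, edgeR adjusted p = 0.0431). Hmmr measured 10.6 and 20.01 FPKM under IgG and 0.135 and 0 under anti-GPIba (log2 -7.82 ± 2.09, adjusted p = 0.0344), and Aurkb 39.4 and 63.8 against 0.500 and 0.580. For both genes the IgG pools lay above every antibody-treated pool. Kif2c had 3 counts in the anti-GPIba pools against 1699 under IgG, a ratio of 569.8 with a 95% counting interval of 194.6 to 2766; such intervals and floors cover counting error only.

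The most abundant gene of each role other than Pttg1 had the same order of means. Ccnb2 stood at 44.0 and 70.6 FPKM under IgG, 0.892 and 0.396 under anti-GPIba and 6.45 and 2.09 under anti-Gr1. Birc5 stood at 76.9 and 153 under IgG, 1.76 and 1.13 under anti-GPIba and 11.1 and 3.55 under anti-Gr1, and Prc1 at 45.2 and 90.8, 1.56 and 1.04, and 8.01 and 2.70. Neither Ccnb2, Birc5 nor Prc1 passed the adjusted threshold in the edgeR fit (adjusted p = 0.0546, 0.0529 and 0.0531), though their groups did not overlap. Cenpa, Mad2l1 and Nusap1 were lower by less: Cenpa was 36.7 and 58.3 FPKM under IgG and 3.85 and 3.94 under anti-GPIba, Mad2l1 was 34.2 and 54.6 against 4.16 and 3.29, and Nusap1 18.2 and 32.6 against 1.66 and 1.33. Kif22 fell from 30.3 and 66.7 FPKM to 1.95 and 0.461 (log2 -5.37 ± 1.65, adjusted p = 0.0471). Pttg1 was once more the exception, at 54.5 and 44.1 FPKM under IgG, 66.2 and 93.3 under anti-GPIba and 71.5 and 36.1 under anti-Gr1 (log2 0.67 ± 0.33 for anti-GPIba, adjusted p = 0.166).

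**Figure D4:**
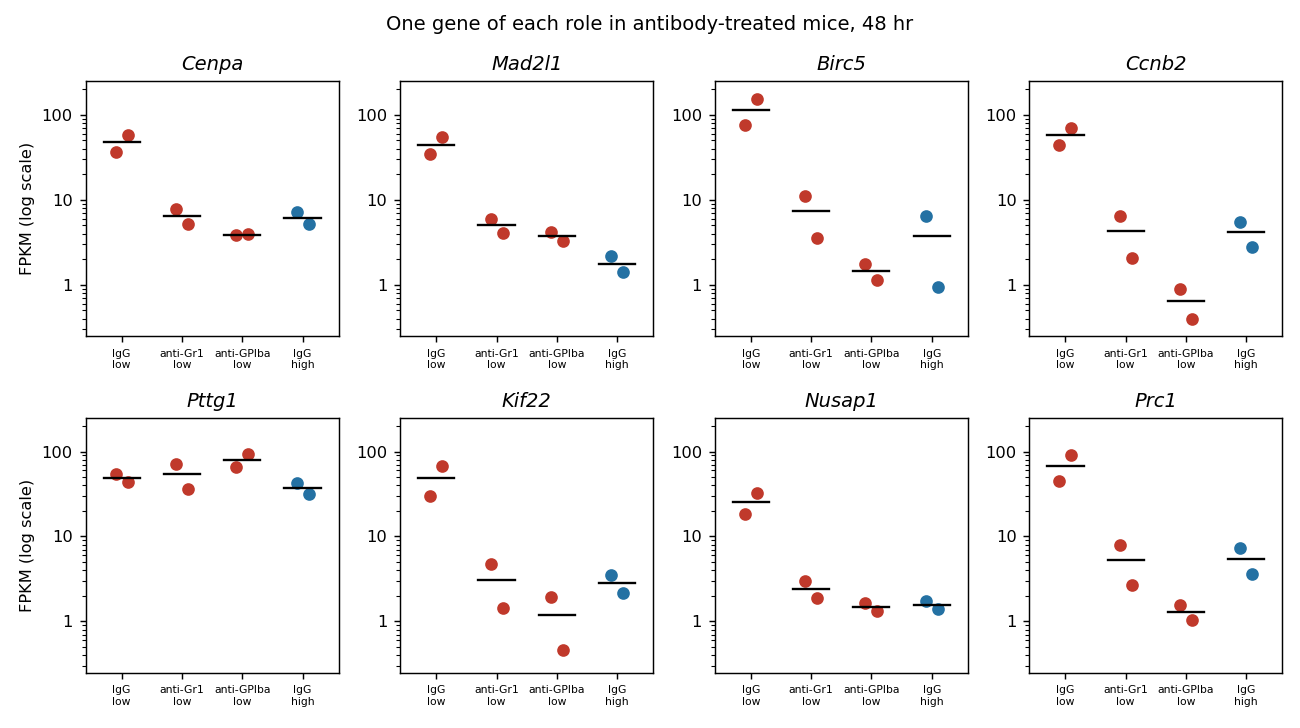
FPKM, on a log scale, of the most abundant member of each role in antibody-treated mice at 48 hr. Each point is a pool (red low flow, blue high flow) and bars are means of 2. In 7 of the 8 panels both anti-Gr1 and both anti-GPIba pools lie below the IgG pools at low flow, as for Ccnb2 (0.396 and 0.892 against 44.0 and 70.6), and in the panel of Pttg1 all 8 pools lie between 31.6 and 93.3.

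Against IgG, anti-Gr1 brought 0 members past the adjusted threshold in edgeR or in DESeq2, where 0% of 13401 genes passed in edgeR, with 27 members at an unadjusted p under 0.05 (18.1% of all genes). Both anti-Gr1 pools lay below both IgG pools for 44 members, as for 28.1% of all genes, and the median log2 fold change was -3.65 (all genes, 0.00). A fit of these 4 pools alone called 42. Between the antibodies at low flow, 40 members had both anti-GPIba pools below both anti-Gr1 pools (21.3% of all genes), and the median difference was -1.69 on the log2 scale (-0.03 over all genes). In edgeR 0 passed, with 2 at an unadjusted p under 0.05 (10.5% of all genes), and in DESeq2 1. Each antibody is compared with the same IgG pools.

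Flow itself was also compared under IgG. Low-flow pools were higher than high-flow pools for 14 of 45 members and lower for 0, against 40.5% of 13401 genes past the threshold and 22.8% higher; 30 members had an unadjusted p under 0.05 (50.6% of all genes). The median log2 fold change was 3.88 (all genes, 0.07), 44 members did not overlap (38.8% of all genes), and DESeq2 called 23. Among the members called, Aurkb changed most, from 0.0449 and 0.324 FPKM at high flow to 39.4 and 63.8 at low flow (log2 7.97 ± 2.08, edgeR adjusted p = 0.0116), followed by Cenph (6.06 ± 1.87) and Plk1 (6.02 ± 1.90); Kif2c, which was not called, had 6.46 (adjusted p = 0.0533). The others called were Cenpk, Cenpn, Ndc80, Nuf2, Spc25, Mad2l1, Incenp, Cdca8, Ccna2, Top2a and Nusap1, so 6 of the 14 were kinetochore genes, a role that holds 10 of the 45. High-flow IgG library 1 held 0 counts for 7 members and library 2 for 1, so changes of members near 0 at high flow are imprecise. Pttg1 stood at 42.9 and 31.6 FPKM at high flow and 54.5 and 44.1 at low flow under IgG (0.32 ± 0.33, adjusted p = 0.449), so it was not lower at low flow here; leaving out single pools left 0 to 9 members called.

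With platelets depleted, low-flow levels were set beside those of IgG-treated high-flow pools. In edgeR 0 members passed (7.7% of 13401 genes did), 5 were at an unadjusted p under 0.05 (27% of all genes) and 3 passed in DESeq2; the median log2 fold change was -1.27 (all genes, 0.04) and 36 were negative. Ccnb2 was 0.892 and 0.396 FPKM under anti-GPIba at low flow and 5.48 and 2.79 under IgG at high flow. For 20 members both low-flow pools without platelets lay below both high-flow pools (27.7% of all genes), and for 4 above (32.2%).

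Liposome-treated pools split by library within a group. Library 2 stood far above library 1 in each: the summed level was 511.8 and 3759 CPM with PBS liposomes at low flow, 209.1 and 3542 with clodronate at low flow and 98.96 and 1754 with PBS liposomes at high flow. Clodronate against PBS liposomes at low flow gave 0 members past the threshold in edgeR or DESeq2 (16 of 13401 genes, 0.119%, passed) and 0 at an unadjusted p under 0.05 (14.9% of all genes), a median log2 fold change of -0.24 (all genes, -0.02) and overlap for every member. Ccnb2 shows the spread, with 10.3 and 123 FPKM under PBS liposomes and 2.68 and 62.6 under clodronate. In the single 100 bp pools the sum was 2387 with PBS liposomes and 1938 with clodronate; 10 members were past 1.5-fold lower (12.8% of genes were) and 1 higher (10.3%), with the largest decrease for Bub1 (0.508-fold, 95% counting interval 0.382 to 0.671) and the only member past 1.5-fold higher Pttg1 (1.53-fold). Flow under PBS liposomes gave 0 members past the threshold (35% of genes passed) in edgeR or DESeq2 and 0 at an unadjusted p under 0.05 (45.9% of all genes); the median change was 1.34 on the log2 scale and 3 members did not overlap (38.7% of all genes); without library 2 at high flow 10 passed. Within a library number low flow stood above high flow both times, at 511.8 against 98.96 CPM and 3759 against 1754. The differences between libraries 1 and 2 correlated across genes in all 3 pairs of liposome groups (r = 0.378 to 0.443). Clodronate and IgG at low flow also stood at 0.404, and no label ties equal numbers to each other, so the numbers are not shown to pair the pools. With the liposome groups alone and the replicate number as a block, edgeR called 37 members higher at low flow (24.6% of all genes). For clodronate against PBS liposomes that fit called 0, with 11 at an unadjusted p under 0.05. It was chosen after seeing the data, on the same pools whose split prompted it. With single pools left out of the unblocked fit, the median ranged from -0.60 to 5.29 for flow (negative without low-flow library 2) and from -4.05 to 1.84 for clodronate (positive without PBS library 2 or clodronate library 1).

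Markers of other cells moved with these groups. Summed over 11 macrophage markers found in the table, untreated pools held 2214 to 3362 CPM at low flow, 61.0 to 139.7 at high flow and 181.8 to 602 in sham; Ptprc, the pan-leukocyte marker, held 95.0 to 172.4, 2.82 to 8.70 and 7.59 to 26.8. The 6 smooth muscle markers held 2325 to 4301, 522 to 617.1 and 434.5 to 1625, and the 11 endothelial markers 4768 to 5929, 9855 to 11310 and 9056 to 11540. In antibody-treated low-flow pools macrophage markers summed to 2189 and 2449 under IgG, 172.9 and 251.1 under anti-GPIba and 1006 and 1222 under anti-Gr1, and 9 neutrophil markers to 117.3 and 340.4, 7.87 and 13.2, and 16.8 and 30.5. Under IgG, Ptprc ranged from 25.1 to 34.1 FPKM at low flow and from 1.90 to 2.60 at high flow. No macrophage marker of the list was at 0 in the 48 hr low-flow pools, and at most 2 were at 0 in a 48 hr high-flow pool; which cells carried the mitotic RNA was not tested. Both clodronate pools held low macrophage sums (214.8 and 225.7, against 1307 and 2252 with PBS liposomes), and their mitotic sums were 209.1 and 3542.

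At 7 d, 7 of 45 members rose at low flow in control mice and 0 passed in Rbfox2 EC-KO mice in the edgeR fit of all pools, counts that moved with the pools used, and the difference between the genotypes passed for 0. Control pools held 463.7, 5147 and 5861 CPM at low flow (libraries 1, 4 and 5) and 179.4 and 179.2 at high flow; EC-KO pools held 548.1, 728.3 and 1702 at low flow and 764 and 301.5 at high flow. In controls low flow lay wholly above high flow, and in EC-KO pools the groups overlapped.

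In controls, 7 of 45 members were higher at low flow and 0 lower in edgeR, against 2.4% of 13352 genes past the threshold and 0.959% higher. They were Spc24, Cenpe, Cenpf, Birc5, Cdca8, Ccnb2 and Nusap1; the median log2 fold change was 4.90 (all genes, 0.04), 44 had an unadjusted p under 0.05 (25% of all genes), and 42 did not overlap (19.3% of all genes). Among these 7, Cdca8, the passenger protein borealin, changed most (6.19, 63.9 and 69.6 FPKM at low flow against 1.01 and 0.420, log2 5.93 ± 1.24, adjusted p = 0.0426), before Spc24 (4.30, 25.3 and 43.6 against 0.282 and 0.516, log2 5.86 ± 1.29) and Ccnb2 (10.6, 121 and 69.6 against 1.12 and 2.29, log2 5.23 ± 1.06). Ttk (6.08, adjusted p = 0.073) and Dlgap5 (6.01, 0.0597) had larger changes that were not called. Birc5 rose from 2.26 and 2.39 FPKM to 11.2, 129 and 132. Library 1 decided the count: without it, 45 passed, 44 higher and Pttg1 lower, and without any other pool 0 did. DESeq2 called 44 with all pools, and the 2 control groups fitted alone in edgeR 0.

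Pttg1 fell outside the pattern again in controls, with 66.9, 17.1 and 14.1 FPKM at low flow (libraries 1, 4 and 5) and 73.0 and 59.4 at high flow. Its log2 fold change was -1.12 ± 0.56 (adjusted p = 0.249), and -2.15 without library 1 (adjusted p = 0.00145). Library 1, the pool with the lowest mitotic sum, held the Pttg1 level nearest to high flow.

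In EC-KO mice, flow gave 0 members past the threshold in edgeR (1.09% of genes passed) or DESeq2 and 0 at an unadjusted p under 0.05 (15.7% of all genes); the median change was 0.98 on the log2 scale (0.01 over all genes), and the low-flow pools lay wholly above the high-flow pools for 4 members (19.4% of all genes) and below for 1, Pttg1 (24.2%). With libraries 4 and 5 alone 6 passed, 5 higher and 1 lower, while the difference between genotypes still gave 0; this alternative was chosen after seeing the data. The flow change differed between genotypes by a median of -3.77 on the log2 scale (all genes, -0.06), lower in EC-KO mice for 44 of 45; 0 passed in edgeR (0% of genes did), 34 had an unadjusted p under 0.05 (4.03% of all genes) and 6 passed in DESeq2.

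Within low flow, EC-KO and control pools overlapped for all 45 members. Plk1 was 5.73, 5.16 and 5.32 FPKM in EC-KO pools and 3.81, 58.6 and 39.0 in controls, so the 2 controls of libraries 4 and 5 stood apart and library 1 lay below all of the EC-KO pools. Mad2l1 was 6.75, 12.5 and 29.8 FPKM in EC-KO pools and 6.56, 64.8 and 67.9 in controls, and Kif22 was 7.07, 11.3 and 21.3 against 4.05, 66.7 and 90.6. For Mad2l1 and Kif22, library 5 of EC-KO held the highest level of its group, still below control libraries 4 and 5. In edgeR 0 passed (0% of genes), with 22 at an unadjusted p under 0.05 (6.59% of all genes), 0 in DESeq2 and a median of -1.99 (all genes, -0.04). Without control library 1, 33 passed, 32 lower in EC-KO and 1 higher (Pttg1, log2 1.2, adjusted p = 0.0304); with libraries 4 and 5 alone on both sides, 8 passed, an alternative chosen after seeing the data.

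At high flow the order was turned: 34 members were higher in both EC-KO pools than in both controls (21.9% of all genes), and the members' median change was 1.84 on the log2 scale (0.02 over all genes). In edgeR 0 passed (1 of 13352 genes did, 0.00749%), DESeq2 called 0 as well, and 7 members reached an unadjusted p under 0.05 (2.19% of all genes). Nusap1 had the smallest p, with 9.73 and 3.70 FPKM in EC-KO pools and 1.17 and 0.477 in controls (log2 2.96 ± 0.84, adjusted p = 1). Markers of other cells differed here too: lymphocyte markers summed to 177 and 21.6 CPM in these EC-KO pools and 9.91 and 3.29 in controls, and Ptprc to 135.5 and 20.8 against 9.10 and 6.93, while macrophage markers stood at 72.2 to 83.8 and 50.7 to 125.6. At low flow macrophage markers summed to 667, 1535 and 1048 in EC-KO and 307.9, 1689 and 350.7 in control pools. The 9 neutrophil markers summed to 8.21, 33.2 and 8.0 in EC-KO and 23.6, 315.0 and 21.2 in control pools. S100a9, a neutrophil granule protein, ranged from 1.05 to 2.12 FPKM against 4.50 to 58.2, while Csf3r overlapped (0.898 to 6.06 against 0.990 to 62.4). All 8 neutrophil markers tested were lower in EC-KO at low flow and 0 passed in edgeR. Lymphocyte markers summed to 83.1 in control library 1 at low flow, against 3.996 and 4.26 in libraries 4 and 5; the part of these cells in the mitotic values was not tested.

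**Figure D5:**
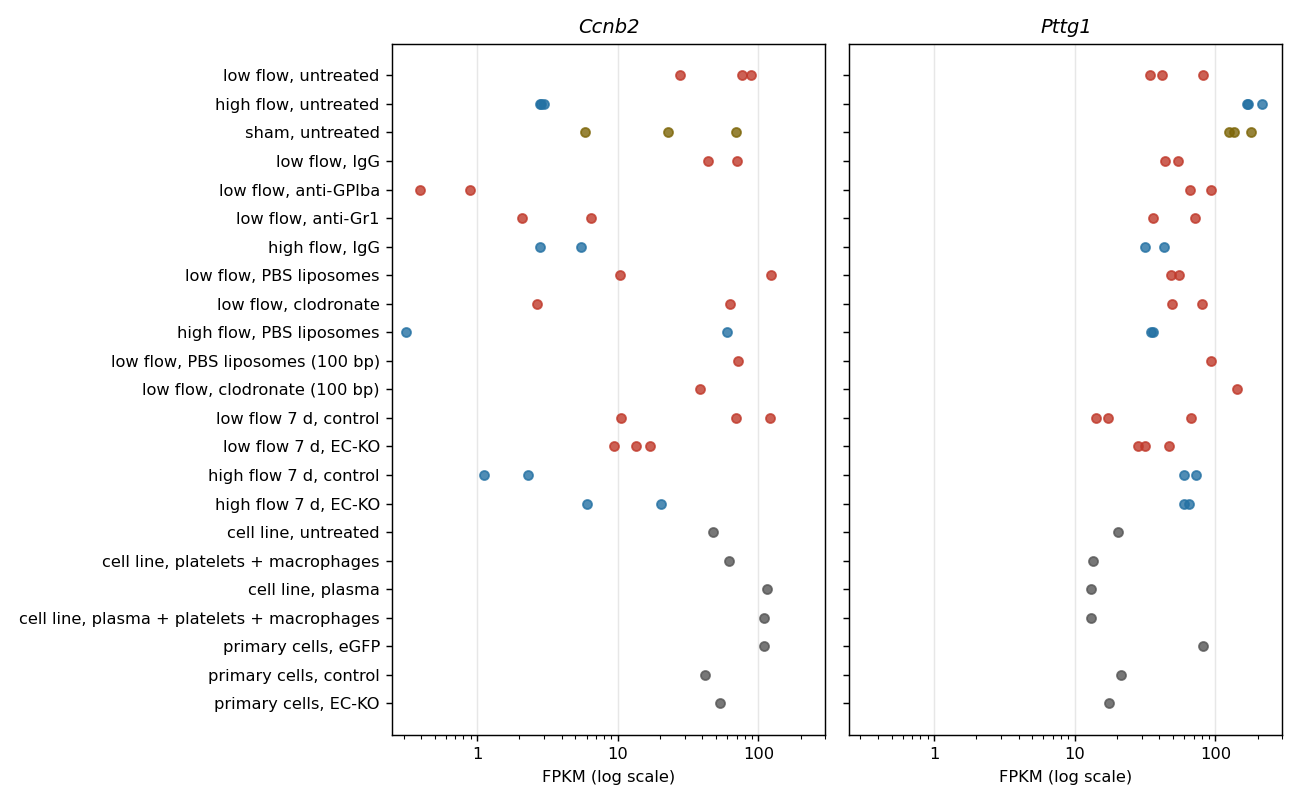
FPKM of Ccnb2 (left) and Pttg1 (right) in every library, on log scales of the same range. Points are libraries (red low flow, blue high flow, olive sham, grey cultured cells). Ccnb2 spans 0.310 to 123 FPKM among the arteries and Pttg1 14.1 to 213, and in untreated mice the 2 genes stand in opposite order between low and high flow.

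In culture, with 1 library for each state and so no replicate check, the line without additions held 2455 CPM of these transcripts. With 10% plasma it held 4366, with platelets and macrophages 2887 and with all of them 4840. With plasma 33 members were past 1.5-fold higher (10.5% of genes were), with a median ratio of 1.70 (0.975 over all genes), led by Cdc20 (27.9 to 81.0 FPKM, 2.90-fold, 95% counting interval 2.65 to 3.17). The next were Hmmr (2.75-fold), Kif23 (2.63-fold) and Ccnb1 (2.56-fold), for the hyaluronan receptor that also organises spindle poles, a midzone kinesin and cyclin B1. With platelets and macrophages 3 members were past 1.5-fold higher (10.1% of genes), with a median of 1.17 and the highest ratio for Plk1 (1.70). With all additions 36 were (15% of genes), led by Plk1 (11.0 to 36.5 FPKM, 3.33-fold, 2.95 to 3.77), and Pttg1 was the single member past 1.5-fold lower in that comparison (0.645-fold, where 23.9% of genes were) and with plasma alone (0.644-fold, 17%). Against plasma alone, adding platelets and macrophages put 2 members past 1.5-fold higher (13.8% of genes) and 1 lower (18%), with a median ratio of 1.09. Macrophage markers summed to 382.7 and 302.4 CPM in the 2 cultures given macrophages and to 20.5 and 56.7 in the others; their part in the mitotic values was not tested.

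Primary cells held 3625 (eGFP-sorted), 2415 (Rbfox2 control) and 2429 (EC-KO) CPM. Between EC-KO and control cells, where Rbfox2 was 0.675 and 9.33 FPKM, 1 member was past 1.5-fold higher and 5 lower (11.5% and 10% of genes), with a median ratio of 1.02. Ndc80 was the highest at 1.91-fold and Dlgap5 the lowest at 0.470-fold. Macrophage markers summed to 1.91 CPM in the EC-KO cells and 311.2 in the control cells.

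Across the 35 artery libraries the members ran together, as a description: the median Pearson r over 990 pairs of log2 levels was 0.92. Every member but Pttg1 correlated positively with the mean of the others, from Espl1 (0.69), Incenp (0.80) and Kif18b (0.83) up to Tpx2 (0.985); Pttg1 stood at -0.386. These libraries share flow groups and differ in depth, and r carries that too.

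Most other mitotic genes and all replication genes listed rose at low flow in untreated mice, and 7 of 15 regulators did. Of 58 further mitotic genes tested, 53 were higher at low flow than at high flow in untreated mice and 0 lower, led by Pbk (log2 5.38), Ube2c (5.35) and Sgol1 (5.25), and 45 of 59 were higher than in sham pools (23.6% and 20.6% of all genes were higher in these comparisons). All 14 replication genes of S phase, such as the Mcm helicase subunits, were higher in both comparisons (median log2 3.33 and 2.32). Under anti-GPIba 16 of 60 further mitotic genes and 6 of 14 replication genes were lower (10.5% of all genes). Low flow under IgG raised 27 of 60 and 14 of 14 (22.8% of all genes), and 1 of the 60 was lower. Among 15 regulators, 7 were higher at low flow than at high flow (23.6% of all genes) and 1 lower (22.6%): E2f8 (3.94), Foxm1 (3.597), E2f1 (3.29), Mybl2 (2.93) and E2f7 (2.503) rose most, and Rbl2, the p130 pocket protein that represses these genes in quiescent cells, fell by 0.94 on the log2 scale. Rbl2 went the other way under anti-GPIba at low flow (1.23 higher) and was 1.99 lower at low flow than at high flow under IgG. Both of these comparisons use the same low-flow IgG pools, for Rbl2 and for the members alike.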

How the data were processed

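Poly(A) RNA of 42 libraries was sequenced with paired 100 bp or 150 bp reads from a low-input cDNA kit. The authors aligned the reads with STAR (2.5.1b) and quantified RefSeq transcripts of mm9 with RSEM (1.2.15), versions per the submitters' processing notes, and deposited expected counts and RPKM for each gene. Of 206 value columns, 138 were not used because they could not be tied to a sample or are further runs, lengths or other measures; the deposited RPKM served only as a check of FPKM in libraries tied to a sample. One row that names no gene was left out. Untreated pools, and the 7 d pools that the columns number 4 and 5, are tied to a group and not to a single sample record.

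Expected counts, as deposited, were rounded to whole numbers (5.2 to 19.32% of the gene values in a library were not whole) and FPKM was computed from them, the effective length and the library total. Summed CPM used the library total too, whereas log2 fold changes used the TMM scaling of the tests, so FPKM or CPM ratios and log2 changes can differ in size. Genes passing filterByExpr were tested with edgeR (4.0.16) in R (4.3.3), with TMM scaling, glmQLFit and glmQLFTest, Benjamini-Hochberg adjustment over all genes tested and a threshold of 0.05. Each untreated comparison was fitted on its own 2 groups. The 7 depletion groups shared a fit, as did the 4 groups of 7 d. Single libraries were compared by ratios of CPM for genes with 20 or more counts. DESeq2 (1.42.0) was an alternative, beside RLE scaling, no filter, fits of only the groups compared, a replicate block and leaving out each library. On simulated counts, edgeR recovered 183 of 200 changed genes in the untreated comparison of low and high flow. For anti-GPIba against IgG it recovered 151 of 200 and called 3 unchanged genes, where DESeq2 recovered 169 and called 21. On counts with no change there, DESeq2 called 5 and edgeR 0. For Rbfox2 EC-KO against control at low flow, edgeR recovered 188 of 200. Recovery at the spread between pools that the members showed was not tested, so these counts say nothing on members that were not called.

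The members and gene lists were chosen with earlier results of these data known. Genes named are the 3 largest called changes without overlap between groups, the most abundant member of each role, and members that went against the others. Kif2c, Esco2 and Fam83d under anti-GPIba, the other genes of the roles and the promoters shown were picked after their values were seen. Total counts were 4064477 to 6794904 at 100 bp and 9931356 to 19035957 at 150 bp, so genes near 0 are less precise in the shallower libraries.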

Additional observations from a re-analysis of the deposited data

How the results depend on the processing

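Low against high flow in untreated mice called 44 or 45 members under every alternative, and leaving out single pools gave 44 to 45; low flow against sham gave 10 to 45. High flow against sham rose from 0 to 11 with DESeq2 and 6 with no filter, and ranged from 0 to 25 with a pool left out. For anti-GPIba against IgG (13), DESeq2 gave 43, DESeq2 with a replicate block 42, no filter 40, the 2 groups alone 44 and the replicate block 37, but leaving out any pool gave 0 to 0. Anti-Gr1 against IgG (0) gave 2 with DESeq2 and a replicate block, 42 with the 2 groups alone and 0 to 0 with a pool left out. Flow under IgG (14) gave 23 with DESeq2, 24 with DESeq2 and a replicate block, 24 with no filter, 41 with the 2 groups alone, 21 with the replicate block and 0 to 9 with a pool left out. Flow under PBS liposomes (0) gave 2 with DESeq2 and a replicate block, 37 with the liposome groups only and a replicate block, and 0 to 10 with a pool left out. Anti-GPIba against high-flow IgG (0) gave 3 with DESeq2, 3 with DESeq2 and a replicate block and 8 with the 2 groups alone; anti-GPIba against anti-Gr1 (0) gave 1 with DESeq2 and 4 with DESeq2 and a replicate block. Clodronate against PBS liposomes stayed at 0.

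At 7 d, EC-KO against control at low flow (0) gave 3 with DESeq2 and a replicate block, 8 with libraries 4 and 5 only and 0 to 33 with a pool left out; at high flow it gave 7 with DESeq2 and a replicate block. Flow in controls (7) gave 44 with DESeq2, 45 with DESeq2 and a replicate block, 45 with libraries 4 and 5 only, 31 with no filter, 0 with the 2 groups alone, 45 with the replicate block and 0 to 45 with a pool left out. Flow in EC-KO (0) gave 18 with DESeq2 and a replicate block, 6 with libraries 4 and 5 only and 3 with the replicate block. The difference between genotypes (0) gave 6 with DESeq2, 22 with DESeq2 and a replicate block and 0 to 1 with a pool left out. DESeq2 with a block, the fit of liposome groups only and the restriction to libraries 4 and 5 were chosen after seeing the data. The cause of these shifts was not tested.

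For the named genes, 1331 values under alternatives kept direction and call, 135 became called, 75 lost the call and 92 changed sign without being called on either side; none changed sign while called. Nothing in the labels says that equal numbers share mice: deviations of same-numbered libraries correlated at 0.378 to 0.443 between the 3 liposome groups, at -0.155 to 0.404 between the other pairs of depletion groups and at 0.011 to 0.191 between 7 d groups. The planned use of the second run of the untreated pools was not run, since its columns could not be tied to pools. With 2 pools a group, calls rest on a spread shared with other groups; counts near 0 under anti-GPIba limit the precision of the largest fold changes.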

Other observations

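The relative level of a few members differed with the read length. Among libraries with a summed mitotic level above 1000 CPM, 7 were read at 100 bp and 14 at 150 bp, and FPKM was divided by the median member of the same library. Kif18b stood at 0.0483 to 0.0789 of that median at 100 bp and 0.278 to 0.584 at 150 bp, Incenp at 0.217 to 0.551 and 0.559 to 1.196, and Ccna2 at 0.782 to 1.33 and 2.76 to 3.56. Cdca8 and Birc5 went the other way, at 3.33 to 5.75 and 0.921 to 2.69 for Cdca8 and 6.06 to 11.5 and 2.24 to 5.68 for Birc5. The other 40 members overlapped between the read lengths. Read length goes with sequencing run, mouse groups and culture in these libraries, and these cannot be told apart.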
